A study of Mus musculus with 4 samples.

Results

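The miRNAs described here are 6 mature miRNAs that lie antisense to Rtl1, an imprinted gene on mouse chromosome 12. They are mmu-miR-431, mmu-miR-433, mmu-miR-127, mmu-miR-434-5p, mmu-miR-434-3p and mmu-miR-136 (written without the prefix below), and they were taken by name from the 577 miRNA names on an Agilent mouse miRNA array. All 6 were on the array, and all 6 passed the filter on dim probes, which left 231 miRNAs for testing. RNA came from A3-1 cells, a cultured mouse embryonic stem cell line grown in medium with 20% serum and the cytokine LIF, which holds back differentiation. Cells of one group received an siRNA against Lin28a (siLin28a, 2 replicates) and cells of the other an siRNA against GFP (siGFP, 2 replicates), and total RNA was taken 48 h later. Every culture therefore carried an siRNA, no untreated cells were analysed here, and all cells came from 1 line. Each replicate went to 1 Cy3 array. Nothing in the labels says whether the replicates were separate cultures, so each p-value covers the spread among these arrays alone, and that spread may be technical.

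Rtl1 is a retrotransposon-derived gene that is expressed from the paternal chromosome and is needed in the placenta. The maternal chromosome makes a transcript from the opposite strand, and hairpins in that transcript give miRNAs that pair along their whole length with the Rtl1 mRNA and can direct its cleavage. The hairpins belong to the imprinted Dlk1-Dio3 region, whose maternal RNAs (Meg3, Rian and Mirg) are on in mouse embryonic stem cells that keep full developmental potential. LIN28A is an RNA-binding protein known for blocking the maturation of let-7 precursors. The comparison addresses the dependence of mature miRNAs on LIN28A in these cells, here for the Rtl1-antisense miRNAs.

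The 5 hairpins lie on the plus strand within 4942 bases of chromosome 12 in RefSeq's annotation of build GRCm38.p6, inside the span given there for Rtl1 (109564900 to 109604418). Exon positions were not used here. The array's own coordinates are in build mm9 and give the same order, miR-431, miR-433, miR-127, miR-434 and miR-136. The older array names do not state an arm for 4 of the hairpins. The distance between the 3′ ends of both arms on the array (44 bases for miR-431, 52 for miR-433, 34 for miR-127 and 35 for miR-136) equals that in RefSeq. The order of the arms along the plus strand makes miR-431 and miR-136 the 5p arms and miR-433 and miR-127 the 3p arms. The mature sequences, from RefSeq, are shown 5′ to 3′ because the seed (bases 2 to 8, in capitals) sets which mRNAs a miRNA pairs with.
miR-431 (5p arm): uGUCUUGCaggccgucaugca
miR-433 (3p arm): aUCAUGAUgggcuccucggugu
miR-127 (3p arm): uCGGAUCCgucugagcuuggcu
miR-434-5p: gCUCGACUcaugguuugaacca
miR-434-3p: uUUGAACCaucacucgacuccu
miR-136 (5p arm): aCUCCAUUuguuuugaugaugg
The 6 miRNAs have 6 different seeds. None of these seeds occurs in another of the 1679 mature mouse miRNA names in the RefSeq table, so each member is the sole listed miRNA of its seed.

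Each array probe reads a stretch that ends at the miRNA's 3′ end. The stretch read by the longest probe of each member is shown in capitals, since its length differs between members.
miR-431: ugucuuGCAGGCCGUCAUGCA
miR-433: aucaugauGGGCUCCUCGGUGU
miR-127: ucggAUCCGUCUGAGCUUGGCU
miR-434-5p: gcuCGACUCAUGGUUUGAACCA
miR-434-3p: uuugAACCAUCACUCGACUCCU
miR-136: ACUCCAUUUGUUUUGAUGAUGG
The longest stretch was 14 bases for miR-433, 15 for miR-431 and all 22 bases for miR-136, the member with the lowest GC content (36.4%, against 59.1% for miR-127). Signals of different probes are therefore not on one scale, and a higher signal of one miRNA than of another, or a share of summed signal, is a statement on probes and not on abundance.

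Both arms of the miR-434 hairpin are members, and they share letters. A run of 9 bases closes miR-434-5p and opens miR-434-3p, shown here in capitals.
miR-434-5p: gcucgacucauggUUUGAACCA
miR-434-3p: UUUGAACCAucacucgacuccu
A further run of 8 bases (CUCGACUC) is also common to them. Among the other pairs of members the longest shared run was 7 bases, between miR-433 and miR-136. The miR-434 hairpin, with both arms in capitals, shows the repeats that these runs come from.
Mir434 hairpin: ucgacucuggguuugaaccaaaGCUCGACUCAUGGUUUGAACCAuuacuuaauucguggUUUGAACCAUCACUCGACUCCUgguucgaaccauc
Whether a probe for one arm also picked up the other was not tested.

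LIN28A is known to bind GGAG, and AAGNNG has also been given as a bound motif, so the transcribed strands of the hairpins were searched for these letters. GGAG was found in 1 of the 5 hairpins, that of miR-433, against 447 of 1005 mouse hairpins in the RefSeq table (44.5%). It begins at base 8, ahead of the 5p arm. AAGNNG was found in 1 of the 5, that of miR-431, against 284 of 1005 (28.3%), and begins at base 81, beyond the 3p arm. The hairpins that hold them are shown with both arms in capitals.
Mir433 hairpin: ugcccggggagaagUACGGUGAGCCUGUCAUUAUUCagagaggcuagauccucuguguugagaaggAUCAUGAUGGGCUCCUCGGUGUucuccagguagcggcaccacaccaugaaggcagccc
Mir431 hairpin: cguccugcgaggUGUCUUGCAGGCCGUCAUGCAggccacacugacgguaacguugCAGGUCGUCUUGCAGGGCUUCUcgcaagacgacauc
These matches are letters in the sequence and not binding sites.

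The 4 arrays share 1 slide and 1 scan. The siLin28a arrays were brighter, with a 75th percentile of signal of 248 and 265, against 226 and 220 on the siGFP arrays, and with more spots well above background (34.5% and 38.8%, against 32.5% and 32.9%). Each array was divided by its 75th percentile over 425 probes well above background on all arrays, and the resulting value is called the scaled signal. The cluster from miR-290 to miR-295, a marker of mouse embryonic stem cells, had all 12 of its listed miRNAs detected on every array. These 12 held 38.6% to 41.1% of the total signal on siLin28a arrays and 38.9% to 41.5% on siGFP arrays. The list leaves out miR-291b-3p of this cluster, named after its values were seen. Its log2 difference (siLin28a minus siGFP) was -0.25, without overlap of the groups. On siLin28a replicate 2 it lay at the floor of 0.0948, the value to which lower scaled signals were raised. The array does not measure Lin28a mRNA, so how far it was knocked down is unknown here.

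All 6 Rtl1-antisense miRNAs had a lower mean scaled signal with siLin28a than with siGFP, against 49.4% of all tested miRNAs, and for 5 of them the groups did not overlap, against 30.7%. The exception was miR-136. The 5 had log2 differences between -0.38 and -0.29, or 0.767 to 0.820 times the siGFP level, and the median over all 6 was -0.35, against 0.00 over all 231 tested miRNAs. None of the 6 passed the test: limma's adjusted p ran from 0.159 for miR-127 to 0.829 for miR-136. Over all tested miRNAs, limma called 2 higher (0.866%), the known LIN28A targets let-7a and let-7f, and 0 lower. The siGFP values of let-7a and let-7f had all been raised to 0.0948, the floor. Flooring thus removed any spread between their siGFP values, which bears on their p-values. It also narrowed their log2 differences, 1.12 for let-7a and 1.17 for let-7f. At an unadjusted p below 0.05, 26 miRNAs were lower (11.3%), 3 of them members (miR-127, miR-434-3p and miR-434-5p). The members lie in 1 transcript, so they are not independent observations.

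miR-431 is the first hairpin of the group, and in mouse muscle progenitors it is known to repress Pax7. Its probe targets lie at chr12:110828675-110828689 (mm9). Its scaled signal was 0.539 and 0.473 on the siLin28a arrays, against 0.589 and 0.711 on the siGFP arrays. Both siLin28a arrays were below both siGFP arrays, by a smaller gap than that between the siGFP arrays themselves. The log2 difference was -0.36 (SE 0.15, 95% interval -0.78 to 0.07, limma adjusted p = 0.229, n = 2 per group).

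The value of miR-431 depends on leaving out 1 spot. Each probe is printed as 10 spots per array, and on siLin28a replicate 2 one spot of a miR-431 probe read 55122, while the other spots of that probe averaged 94.2 ± 7.13 (SD over spots). The scanner software had marked that spot as an outlier. With such spots kept, the log2 difference of miR-431 would be 1.07 in place of -0.36. Of the 480 spots of the 6 members over 4 arrays, 17 were marked in this way.

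miR-433, reported in human cells to repress the growth factor gene FGF20, has its kept probe target at chr12:110829999-110830012 (mm9). Its scaled signal was 0.208 and 0.192 on the siLin28a arrays, against 0.228 and 0.261 on the siGFP arrays. The groups did not overlap, but siLin28a replicate 1 and siGFP replicate 1 lay close together. The log2 difference was -0.29 (SE 0.13, 95% interval -0.67 to 0.10, limma adjusted p = 0.266, n = 2 per group). The second probe of miR-433, which reads 13 bases, was too dim to be kept, with mean spot signals of 14.9 and 16.9 for siLin28a and 16.9 and 18.0 for siGFP before scaling.

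miR-127 is the member whose loss in mice is known to change the placenta through Rtl1. Its probe targets lie at chr12:110831102-110831119 (mm9). Its scaled signal was 1.38 and 1.45 on the siLin28a arrays, against 1.69 and 1.92 on the siGFP arrays. The groups were apart, and the mean was 1.42 ± 0.0529 with siLin28a and 1.81 ± 0.162 with siGFP (SD, n = 2 each). The log2 difference was -0.35 (SE 0.09, 95% interval -0.61 to -0.09, limma adjusted p = 0.159, n = 2 per group), with the smallest SE of the 6 in this fit. Without limma's variance trend, miR-434-5p had a smaller SE than miR-127 (0.078 against 0.099).

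The arms of the miR-434 hairpin are a pair of strands cut from 1 precursor, and their differences lay close together. miR-434-5p (kept probe target chr12:110832741-110832759, mm9) had a scaled signal of 0.237 and 0.245 on the siLin28a arrays, against 0.302 and 0.325 on the siGFP arrays. Here the groups were well apart compared with the gaps inside them. miR-434-3p (chr12:110832779-110832796, mm9) had 0.508 and 0.562 on the siLin28a arrays, against 0.658 and 0.739 on the siGFP arrays. The log2 difference was -0.38 (SE 0.12, limma adjusted p = 0.169) for the 5p arm and -0.38 (SE 0.11, limma adjusted p = 0.169) for the 3p arm. The log2 signal of the 3p arm minus that of the 5p arm was 1.10 and 1.20 for siLin28a, against 1.12 and 1.18 for siGFP. The difference between groups was -0.0032, which became -0.12 when the dim 5p probe was let in. On both siLin28a arrays that probe lay below the floor (scaled signal 0.0817 and 0.0830, against 0.0950 and 0.117 for siGFP). The floor narrows its difference, so the -0.12 does not measure unequal change of the arms. Without that probe, the exact permutation test over the 4 arrays gave a two-sided p of 1. With 2 arrays against 2 it cannot go below 0.333, so it could not have shown unequal change of the arms.

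miR-136, from the last hairpin of the group, was the member whose groups overlapped. Its probe targets lie at chr12:110833541-110833562 (mm9). Its scaled signal was 1.00 and 1.07 on the siLin28a arrays, against 0.933 and 1.25 on the siGFP arrays. Both siLin28a values lay between the siGFP values, and the log2 difference was -0.06 (SE 0.17, 95% interval -0.55 to 0.43, limma adjusted p = 0.829, n = 2 per group). The interval includes the difference of each other member, so miR-136 is not shown to differ from them by it. The log2 signal of miR-136 minus the mean of the other 5 members, a contrast chosen after its values were seen, was 1.15 and 1.25 for siLin28a, against 0.79 and 1.03 for siGFP. The groups did not overlap in this contrast, and the exact permutation test gave p = 0.333 (two-sided), the smallest that 2 arrays against 2 can give.

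**Figure D1:**
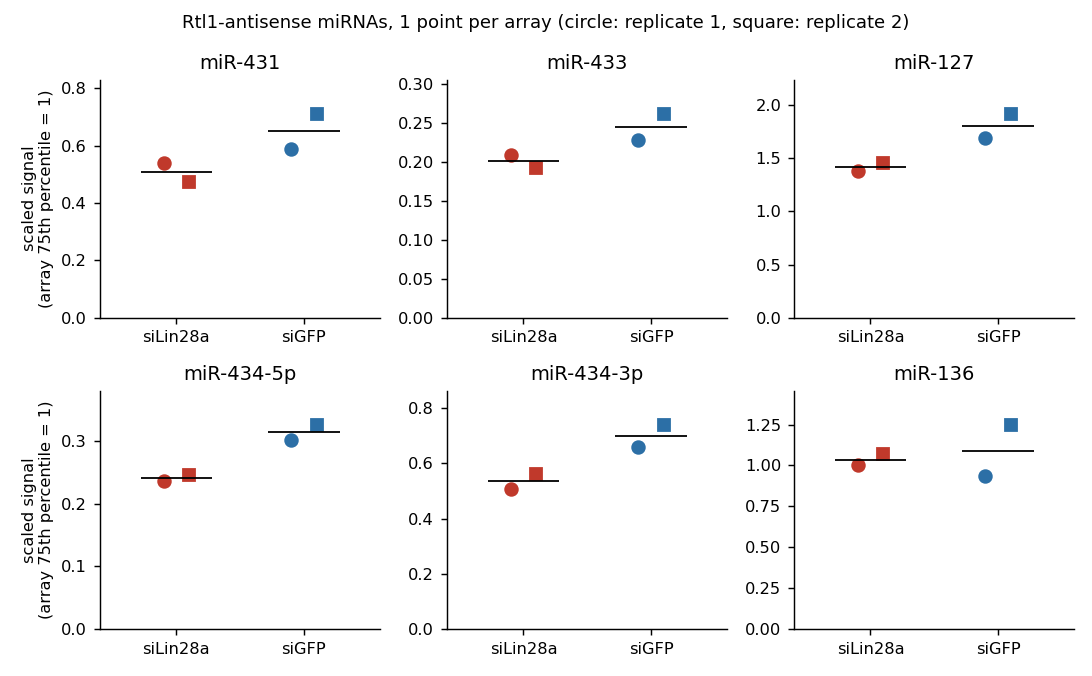
Scaled signal of the 6 Rtl1-antisense miRNAs on each array (y axis from 0, unit: the array's 75th percentile), with siLin28a arrays at the left and siGFP arrays at the right of each panel; circles are replicate 1, squares replicate 2, and lines are group means. The siLin28a points lie below the siGFP points for 5 miRNAs, and for miR-136 they lie between the siGFP values of 0.933 and 1.25.

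The other arm of 4 of the hairpins was also on the array, and miR-136* was the only one with a measured difference. miR-136*, the 3p arm of the miR-136 hairpin, had a log2 scaled signal of -1.91 and -1.92 on the siLin28a arrays, against -1.72 and -1.49 on the siGFP arrays. Its log2 difference was -0.31 (SE 0.14, limma adjusted p = 0.265) without overlap of the groups, in the range of the 5 members that did not overlap. The log2 signal of miR-136 minus that of miR-136* was 1.92 and 2.01 for siLin28a, against 1.62 and 1.81 for siGFP, a difference of 0.25 (exact permutation p = 0.333, two-sided, the smallest possible, in a contrast chosen after its values were seen). miR-433* entered the test with 1 probe but lay at the floor on every array, so its difference of 0.00 measures nothing. miR-431* had total signals of 4.77 and 5.91 with siLin28a and 6.52 and 9.08 with siGFP, too dim to be tested, and miR-127* was not detected on any array.

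The probes of a member gave similar differences. Of 12 probes for the 6 members, 10 were kept, and 9 of these 10 had a lower mean with siLin28a. For miR-434-3p the log2 differences were -0.39 and -0.38, for miR-127 -0.39 and -0.31, and for miR-431 -0.28 and -0.43. The probes of miR-136 gave 0.0004 and -0.12. Probes of 1 miRNA read the same molecules, so this shows the repeatability of the reading and adds no replicate. The spots of a kept probe varied by 1.43% to 10.5% (coefficient of variation within an array).

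**Figure D2:**
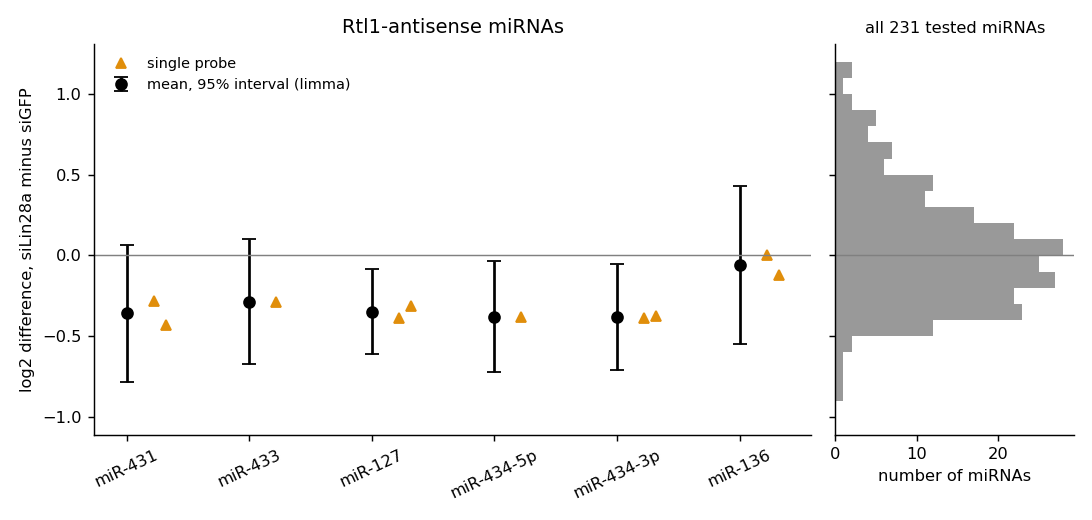
Left, log2 difference (siLin28a minus siGFP) of each Rtl1-antisense miRNA with its 95% interval from limma (black) and the difference of each kept probe (orange triangles). Right, number of miRNAs at each log2 difference among all 231 tested; the members other than miR-136 lie between -0.38 and -0.29, where the histogram also holds many other miRNAs.

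The siGFP arrays differed from each other for these miRNAs, always in one direction. siGFP replicate 2 was above siGFP replicate 1 for 6 of 6 members, by 0.11 for miR-434-5p up to 0.42 for miR-136 on the log2 scale. Most other tested Dlk1-Dio3 miRNAs also had siGFP replicate 2 above replicate 1, with miR-370 among the exceptions. The direction is therefore not particular to the members, and its share over all tested miRNAs was not counted. On the siLin28a arrays replicate 2 was above replicate 1 for 4 of 6, with gaps from -0.19 for miR-431 to 0.15 for miR-434-3p. In each of the 6 the gap between the siLin28a arrays was smaller in size than that between the siGFP arrays. For these counts too, the share over all tested miRNAs was not counted. Without siGFP replicate 2 the median difference of the members was -0.22, with miR-136 at 0.17, miR-431 at -0.20 and miR-433 at -0.17. Without siGFP replicate 1 the median was -0.45. Without siLin28a replicate 1, miR-433 was at -0.17 and miR-434-5p at -0.25. There a dim probe of each also passed the filter, at the floor on the remaining siLin28a array, which narrows these differences. On the probes kept with all 4 arrays, that array had log2 scaled signals of -2.38 (miR-433) and -2.03 (miR-434-5p). The siGFP means were -2.03 and -1.67, respectively.

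The lower values with siLin28a are lower relative to other miRNAs. Before scaling, the mean probe signal of miR-434-5p was 58.7 and 64.8 for siLin28a, against 68.1 and 71.4 for siGFP, and it was the only member of the 6 without overlap. miR-127 had 370.4 and 416 before scaling for siLin28a, against 410 and 452 for siGFP, where the groups overlapped. The total signals that the scanner software gives per miRNA overlapped for all 6, as for miR-136 with 361 and 417 for siLin28a and 301 and 408 for siGFP. With no scaling between arrays the median difference was -0.15 over the members and 0.19 over all tested miRNAs, so that the members' median relative to all miRNAs was -0.34, against -0.35 with scaling, and miR-136 was the member with a positive difference (0.14). As a share of the total signal of all miRNAs, the 6 members made up 0.841% and 0.853% with siLin28a and 0.940% and 1.07% with siGFP. The brightness of the arrays moves with the groups, and its part in these differences was not tested. In bulk RNA, fewer cells that make these miRNAs and less of them per cell cannot be told apart.

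**Figure D3:**
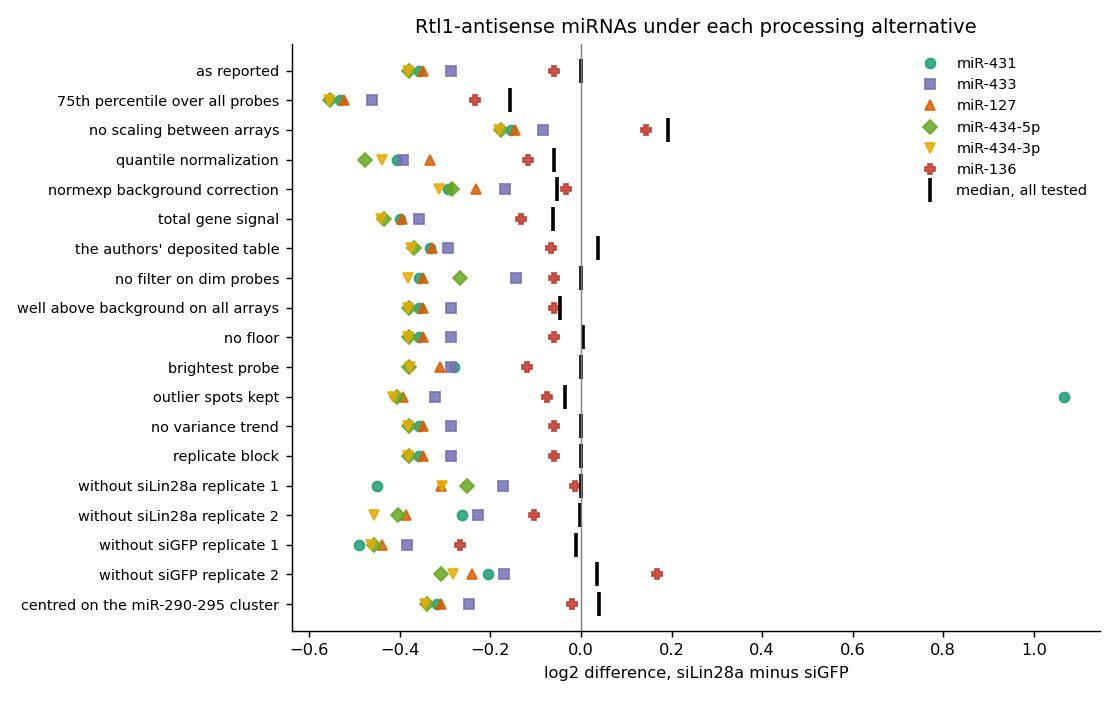
Log2 difference (siLin28a minus siGFP, x axis) of each Rtl1-antisense miRNA (coloured symbols) and the median of all tested miRNAs (black bar) under the reported processing and each alternative (rows). The members other than miR-136 stay below 0 in all rows but one, where the outlier spot of miR-431 is kept and miR-431 moves to 1.07.

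Most of the neighbouring miRNAs of the Dlk1-Dio3 region also had a negative difference, and none was called. Of 64 other names of the region on the array 36 were tested, 2 of them (miR-136* and miR-433*) from the members' own hairpins. Of the 36, 31 had siLin28a below siGFP on average, against 49.4% of all tested miRNAs. For 24, miR-136* included, this was without overlap, against 30.7%. Among these 24, miR-496 lay at the floor on both siLin28a arrays, and miR-485* and miR-369-5p on siLin28a replicate 1 (named after their values were seen). The median log2 difference of the 36 was -0.23. That median was -0.12 without siGFP replicate 2, over 38 miRNAs, and -0.14 without siLin28a replicate 1, over 42. In both, more miRNAs passed the filter, so these medians are over different sets. Of the 6 tested outside the distal cluster and the hairpins of the members, 4 had a lower mean without overlap, with a median of -0.18. The other two, named after their values were seen, were miR-770-3p at 0.12 (SE 0.14) and miR-540-3p at 0.0058 (SE 0.15), both with overlap. The miRNAs of highest probe signal were named by rule, which is no order of abundance. Upstream of miR-431, miR-665 had a log2 difference of -0.32 (SE 0.13) and miR-337-3p of -0.16 (SE 0.11). Downstream, miR-370 had -0.34 (SE 0.10). In the distal cluster from miR-379 to miR-410, 26 of 28 tested miRNAs had a lower mean and 19 were lower without overlap, with a median of -0.25. Those of highest probe signal, miR-494, miR-376b and miR-376a, had log2 differences of -0.21 (SE 0.08), -0.41 (SE 0.08) and -0.27 (SE 0.11). No test was made of whether the Rtl1-antisense miRNAs differ from the rest of the region, and neither had a miRNA that limma called.

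**Figure D4:**
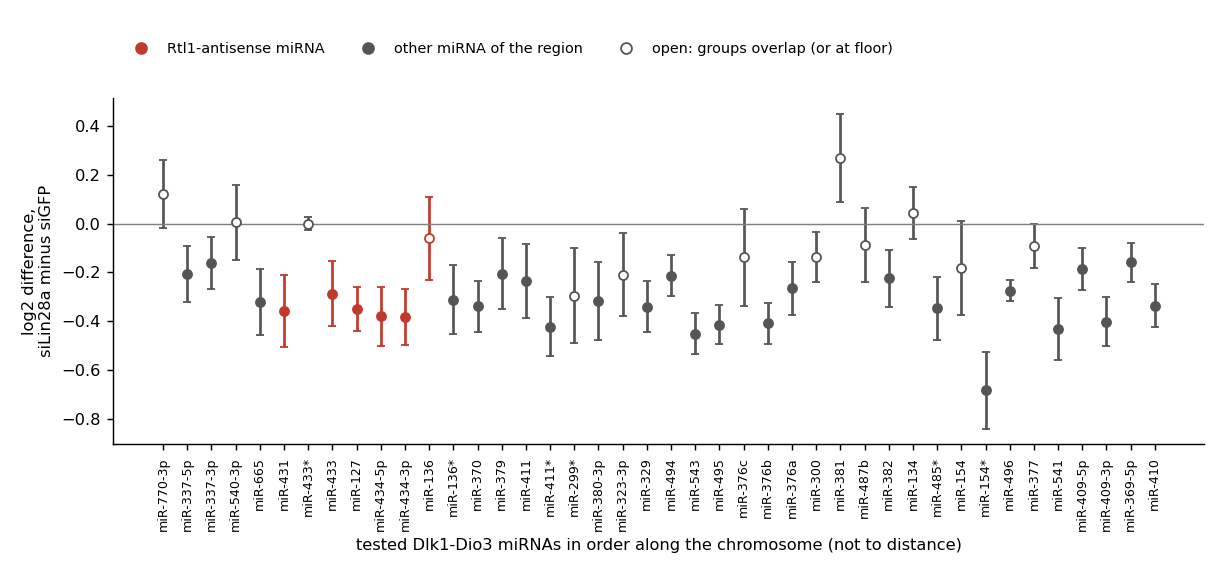
Log2 difference (siLin28a minus siGFP, y axis, bars: SE from limma) of every tested miRNA of the Dlk1-Dio3 region in its order along the chromosome; Rtl1-antisense miRNAs are red, others grey, and open symbols mark groups that overlap or, for miR-433*, lie at the floor on every array. Filled symbols mark groups without overlap, some of them with siLin28a arrays at the floor. The red symbols lie between -0.38 and -0.06, within the range of the grey ones (-0.68 to 0.27).

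The miRNAs whose profile over the 4 arrays was most like the members' mean were sought by the root mean square distance of log2 values after removing each miRNA's mean. The nearest 5 outside the members were miR-136* (0.0079), miR-130b (0.020), miR-665 (0.029), miR-106a (0.037) and miR-376a (0.040), while the members themselves lay between 0.036 (miR-127) and 0.14 (miR-136) from their own mean. Of these 5, miR-136*, miR-665 and miR-376a lie in the Dlk1-Dio3 region, and miR-130b and miR-106a lie on chromosomes 16 and X. With 4 arrays such a likeness is a description of these arrays.

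Markers of other cell types were detected in part, and their lists are given as shares of the summed probe signal. The muscle list had 0 of 5 miRNAs detected on any array, with a summed signal of 0 on both siGFP arrays. The neural list held 0.149% and 0.184% of the signal with siLin28a and 0.143% and 0.164% with siGFP, with 3 of 7 detected on each array. The fibroblast or feeder list held 0.302% and 0.258% with siLin28a, against 0.299% and 0.240% with siGFP, with 4 or 5 of 12 detected. The blood list held 0.124% and 0.0944% with siLin28a and 0.116% and 0.0944% with siGFP, with 4 or 5 of 6 detected. The epithelial list, with 6 of 10 detected on each array, moved with the groups, at 0.501% and 0.421% with siLin28a, against 0.393% and 0.327% with siGFP. All 6 of its tested miRNAs had a higher mean with siLin28a, and none was called. The groups did not overlap for 5 of them, against 30.7% of all tested miRNAs that were higher without overlap. The endoderm or liver list held 0.0134% and 0.0195% with siLin28a, against 0.00859% and 0.0116% with siGFP, but 0 of its 4 miRNAs were detected on 3 of the arrays and none was tested, so these shares are mostly signal not above background. The part of the epithelial list in the lower values of the Rtl1-antisense miRNAs was not tested.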

How the data were processed

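The authors' deposited scanner files hold intensity values per spot on a linear scale, written by Agilent's Feature Extraction software (9.5.1.1 per the file headers, 9.5.3.1 per the submitters' processing notes). Their processed intensity is the mean spot signal minus a background surface fitted within the array. The deposited table holds total signals per miRNA without scaling between arrays. Flagged outlier spots among 11540 spots per array were left out (3.21% to 4.32%, none saturated), and signals were averaged over the spots of 1712 probes. Well above background means that at least 50% of a probe's spots carried that flag. Scaled signals were floored at 0.0948 before log2 was taken. Probes stayed in if both arrays of either group had them well above background (477 probes), and kept probes of a miRNA were averaged.

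The test was limma's (version 3.58.1, in R 4.3.3, with eBayes and a trend), two-sided, Benjamini-Hochberg adjusted over 231 miRNAs at 0.05. The members and lists were chosen with earlier results of these data known. The text names all members, their other arms, the 5 nearest profiles, the 3 miRNAs of highest mean probe signal in the proximal and distal Dlk1-Dio3 lists, and let-7a and let-7f. Sequences are from RefSeq (GRCm38.p6), where all 6 members matched, and array coordinates are mm9 per the file headers. The number of arrays limits the precision.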

Additional observations from a re-analysis of the deposited data

How the results depend on the processing

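Of 18 alternatives, 17 were planned and 1, centring each array on the cluster from miR-290 to miR-295, was added after the data were seen. miR-433, miR-127, miR-434-5p and miR-434-3p had a negative difference in all 18, from -0.46 to -0.084 for miR-433, -0.52 to -0.15 for miR-127, -0.55 to -0.18 for miR-434-5p and -0.56 to -0.18 for miR-434-3p. Each was smallest in size with no scaling, and miR-433 was -0.14 with no filter, where its dim probe enters at the floor on every array. In these alternatives no member reached an adjusted p below 0.05 in any (limma, lowest 0.0955). limma called 0 miRNAs lower throughout.

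miR-431 turned to 1.07 with outlier spots kept, because of 1 spot. miR-136 turned to 0.14 with no scaling between arrays and ranged from -0.27 to 0.17 with 1 array left out, the positive value being without siGFP replicate 2; the cause was not tested. The members' median was -0.53 with the 75th percentile over all probes and -0.15 with no scaling, and ranged from -0.45 to -0.22 with 1 array left out. Relative to all tested miRNAs it was -0.37 and -0.34 under those scalings, and -0.21 with normexp, whose offset of 50 narrows differences. The median of the other Dlk1-Dio3 miRNAs was -0.39 and -0.027 under the same scalings. Relative to all tested miRNAs it was -0.24 and -0.22, and -0.13 with normexp, so that it also held with no scaling. With no filter, which lets in miRNAs at the floor, the median of the other Dlk1-Dio3 miRNAs was -0.038. The arm contrast of miR-434 was -0.12 with no filter, where a dimmer 5p probe enters at the floor on both siLin28a arrays.

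The 2 called higher became 0 with the percentile over all probes, with normexp, with no filter and with probes well above background on all arrays, where 78, 23, 41 and 52 miRNAs had an unadjusted p below 0.05. They became 8 with total gene signals, 7 with the authors' deposited table and 8 with no floor, and 0 to 13 with 1 array left out (a lone array is assumed to vary like the others).

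Replicate numbers are shared between groups, but the labels do not say that they pair arrays. On the slide, the replicate 1 arrays lie at positions 1 and 2 and the replicate 2 arrays at positions 3 and 4. Deviations of same-numbered arrays correlated at 0.71 across miRNAs. With the replicate number as a block, 2 miRNAs were called higher and 0 lower, and the adjusted p of both miR-434 arms was 0.0955.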
